A study of Mus musculus with 8 samples.

Results

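The genes for the protein components of the cytosolic ribosome were compared between testes of DEHP-treated and vehicle-treated mice. Members were the array spots whose gene name was Rpl or Rps followed by a number, or Rplp0, Rplp1, Rplp2 or Rpsa, with the Rps6k kinases left out. This rule gave 146 spots, 137 probes and 82 gene names, of 41174 probes and 27671 gene names on the array. Of the 82, 45 were large subunit genes, 31 were small subunit genes, 5 were paralogues whose name ends in -like notation (Rpl3l, Rpl7l1, Rpl22l1, Rpl36al and Rps27l), and 1, Rps19bp1, encodes a protein that binds Rps19 and is not part of the ribosome. A probe was used if it lay well above background in at least 4 of the 8 DEHP channels or 4 of the 8 vehicle channels, which 125 of the 137 probes did. Each gene was represented by its brightest such probe, and 81 genes had one. Rpl3l, a paralogue of Rpl3 known from striated muscle, had none.

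The ribosome joins a large subunit, which forms peptide bonds, to a small subunit, which reads the messenger RNA, and each ribosomal protein is normally present once per particle, the stalk proteins aside. Their mRNAs are among the most abundant of a growing cell and carry a tract of pyrimidines at the very 5′ end, the terminal oligopyrimidine (TOP) tract, through which mTORC1 and Larp1 control their translation as a group. In the testis several ribosomal proteins have paralogues, often retrogenes of a parent on the X chromosome, which is silenced during meiosis in male germ cells.

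DEHP, di-(2-ethylhexyl)-phthalate, is a plasticiser whose metabolites act on the testis. In the DEHP group, 4 male C57BL/6J mice received 200 mg/kg/day in corn oil by gavage for 21 days from 18 weeks of age, and in the vehicle group 4 such mice received corn oil alone. Areas rich in Sertoli cells, the somatic cells that nurse the germ cells, were cut by laser from the middle layer of the tubule epithelium of the right testis of each mouse at 21 weeks, and their RNA was amplified in 2 rounds. A DEHP mouse and a vehicle mouse shared each of 8 two-colour arrays, so that 4 mouse pairs were each measured on 2 arrays with the dyes swapped. Slide 1 held the 4 arrays on which the DEHP mice carried Cy5, and slide 2 the 4 on which they carried Cy3, which leaves slide confounded with dye: the effects of the 2 cannot be told apart. Pairs 1 to 4 joined DEHP mice 1 to 4 with vehicle mice 2, 3, 4 and 1. The 2 arrays of a pair were averaged, and n = 4 pairs throughout. A log2 ratio is DEHP over vehicle, and a log2 level is one mouse's normalised intensity for one probe, which cannot be set against the level of another probe.

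Of the Sertoli markers, 13 of 15 passed the filter, and Gata4 was among those that did not. Their summed linear intensity was 29300 to 38600 in DEHP mice and 26000 to 35500 in vehicle mice. The captured areas also held germ cell RNA, since 10 of 10 spermatid markers and 8 of 9 spermatocyte markers passed. Leydig cell markers, 4 of 8 of which passed, summed to 3070 to 11400 in DEHP mice and 3240 to 11300 in vehicle mice, and Cyp11a1, Hsd17b3, Hsd3b6 and Lhcgr stayed below the filter. The brightest of the 4 that passed made up most of each sum, so the sums follow that gene more than the set. The labels disagree on the captured cells, because the extraction text names Leydig cells where the titles and tissue label name Sertoli-rich areas. The share of spots well above background ran between 49.8% and 59.5% per channel, and no spot was saturated. In such mixed captures, fewer cells of a type and less RNA per cell cannot be told apart.

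No ribosomal protein gene passed the test over all probes. The limma fit on the 4 pair means called 0 of 22975 tested probes at an adjusted p of 0.05 (0% of the background), with a smallest adjusted p of 0.903, and 527 probes higher and 528 lower at an unadjusted p under 0.05. The members nevertheless lay mostly on one side. Of the 76 genes of the 2 subunits, 68 (89.5%) had a mean ratio above 0, where 49.9% of the 16970 tested genes and 47.7% of the brightest 10% of tested genes did. The displacement was small: the median log2 ratio of the 76 genes was 0.105, against 0.0 for all tested genes and -0.006 for the brightest 10%, to which 47 of the 76 genes belong. In every one of the 4 mouse pairs 15 of the 76 genes were higher with DEHP, 0 were lower in all 4, and the background shares of these calls were 6.69% and 6.89%, or 5.3% higher in all 4 pairs among the brightest 10% of genes. At an unadjusted p under 0.05, 8 of the 76 were higher and 0 lower, with background shares of 2.47% and 2.33%, and of 3.12% higher among the brightest 10%. The mean ratio exceeded 1.2-fold in 3 of the 76 genes, Rps15 and Rps21 among them, against a background share of 1.57%, and 0 of the 76 were more than 1.2-fold lower, against 2.11%. Under this processing the 95% interval of the ratio stayed within 2-fold for all 76 genes and within 1.5-fold for 74. Most tested genes had such intervals too, with 16916 of 16970 within 2-fold and 15747 within 1.5-fold. For dim genes these intervals do not bound the change, because the size of their ratios depended on the processing. The mean log2 ratio was 0.312 for Rps15 and 0.189 for Rpl14 here. With the log ratio of the Agilent software these were 0.489 and 0.395.

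**Figure D1:**
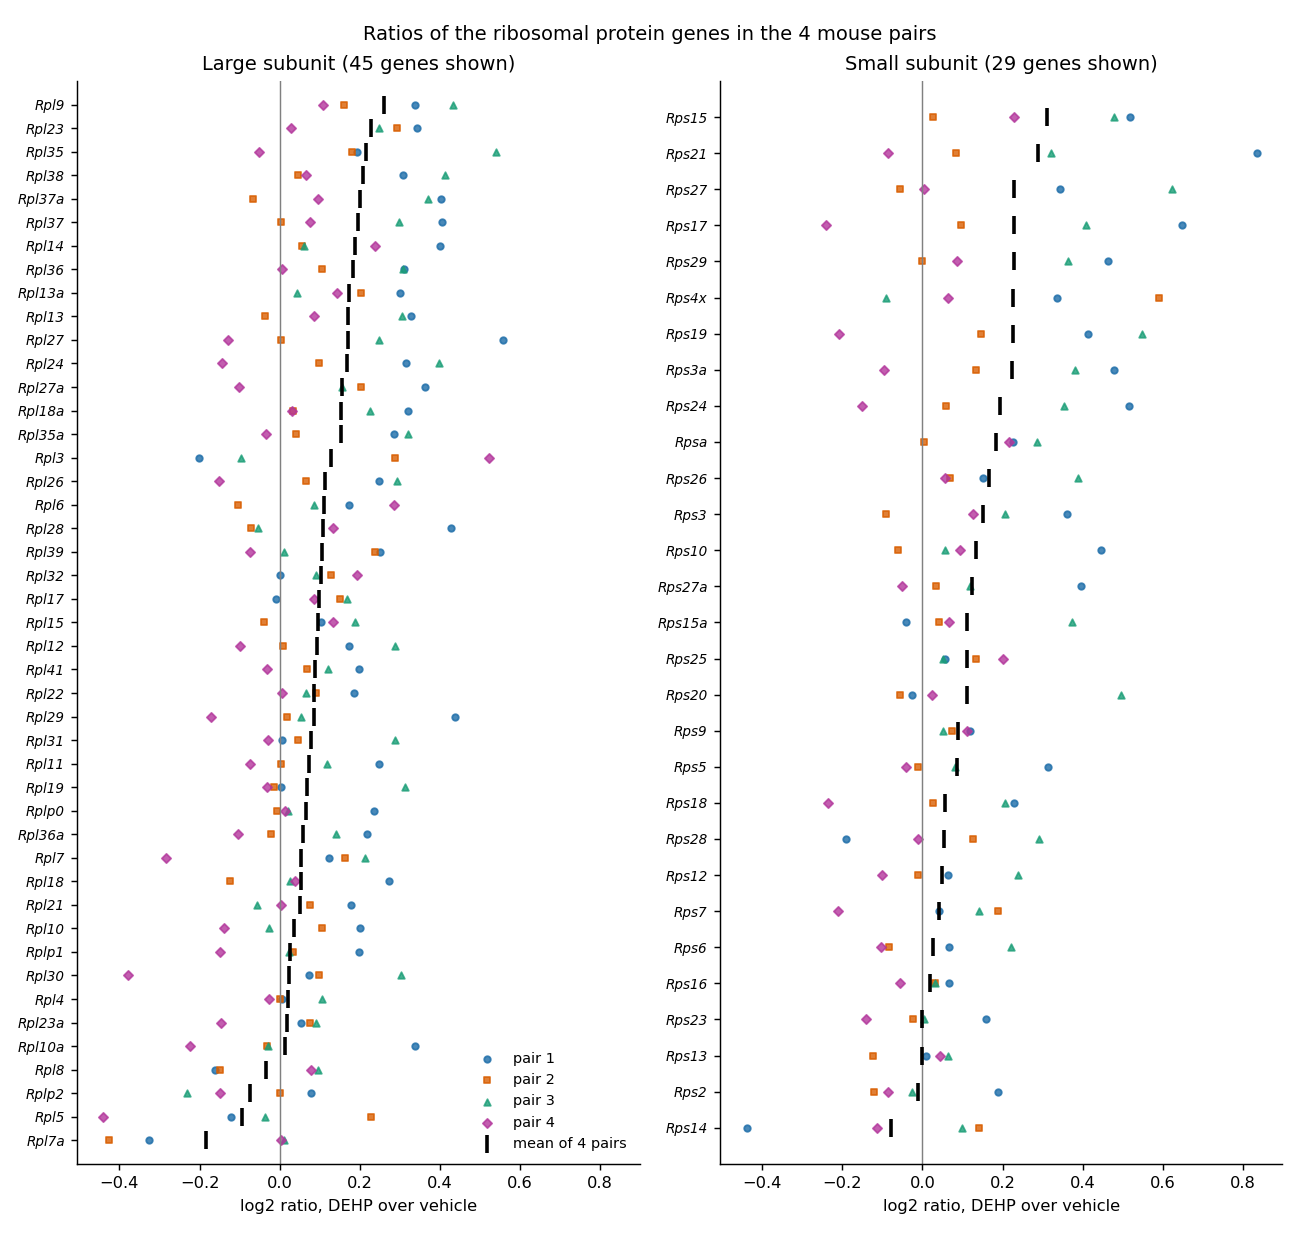
Log2 ratio of DEHP over vehicle (horizontal axis) for the 45 large subunit genes (left) and 29 of the 31 small subunit genes (right), ordered by mean, with 1 point for each of the 4 mouse pairs and a black bar for their mean. Over all measured members, mean ratios lie above 0 for 41 of 45 large and 27 of 31 small subunit genes, and the points of pair 4 scatter around 0.

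The ratios differed between mouse pairs more than between subunits. Large subunit genes had median log2 ratios of 0.22, 0.045, 0.12 and -0.026 in pairs 1 to 4, and small subunit genes had 0.23, 0.032, 0.21 and -0.028. In pair 1, 40 of 45 large and 26 of 31 small subunit genes were above 0, and in pair 3 the counts were 38 and 28. Pair 2 had 33 large and 20 small subunit genes above 0. Pair 4 had 22 and 14, close to an even split.

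Both dye orientations placed pairs 1 and 3 above pairs 2 and 4. With DEHP labelled by Cy5 and then by Cy3, large subunit medians were 0.22 and 0.19 in pair 1, 0.040 and 0.053 in pair 2, 0.19 and 0.073 in pair 3, and -0.037 and -0.027 in pair 4. Small subunit medians were 0.12 and 0.27 in pair 1, -0.009 and 0.055 in pair 2, 0.21 and 0.24 in pair 3, and -0.016 and 0.018 in pair 4. On those arrays the brightest 10% of tested genes stayed between -0.017 and 0.010. Within a pair the 2 arrays differed most for the small subunit in pair 1 and the large subunit in pair 3.

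**Figure D2:**
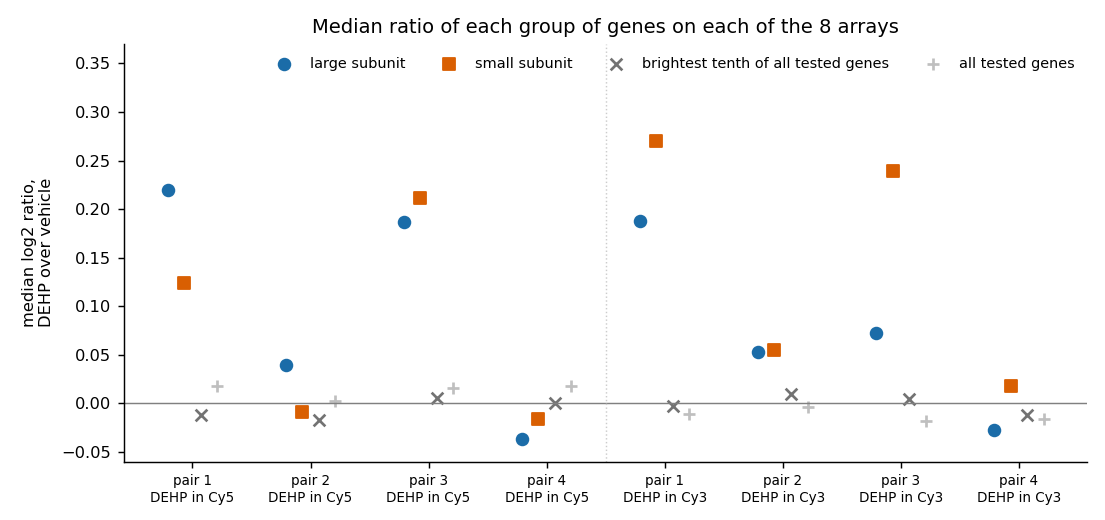
Median log2 ratio of DEHP over vehicle (vertical axis) of the large subunit, the small subunit, the brightest 10% of tested genes and all tested genes on each of the 8 arrays, by dye orientation. Both subunits lie above the brightest 10% on every array of pairs 1 and 3, and near 0 on those of pair 4.

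The subunits did not differ from each other beyond the spread between pairs. The median log2 ratio was 0.096 for the large subunit (interquartile range 0.053 to 0.17) and 0.11 for the small subunit (0.044 to 0.22). The large minus small difference of medians was -0.008, 0.014, -0.085 and 0.002 in pairs 1 to 4, a mean of -0.019 ± 0.045 (SD). Large subunit genes included 10 of 45 higher in all 4 pairs and 5 at an unadjusted p under 0.05, and small subunit genes 5 of 31 and 3. Within the brightest 10%, the 28 large subunit genes had a median of 0.097 and the 19 small subunit genes 0.056.

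The scaling of the arrays set part of the size. With each array centred on its median in place of the loess fit, which removes trends with brightness, the medians were 0.25 for the large and 0.28 for the small subunit and all 76 genes were above 0, but the brightest 10% of tested genes then had a median of 0.17. The 2 subunits thus stood 0.08 and 0.109 above those genes under median centring, and 0.102 and 0.116 above them under loess.

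In the large subunit the 6 genes with the smallest p were Rpl9, Rpl23, Rpl13a, Rpl36, Rpl38 and Rpl14, and each was higher with DEHP in 4 of 4 pairs. Rpl9 lies near the base of the stalk to which translation factors bind. Its log2 level was 13.68, 13.80, 13.76 and 13.64 in DEHP mice 1 to 4, against 13.53, 13.34, 13.64 and 13.32 in vehicle mice 1 to 4. The DEHP mice all lay at or above the highest vehicle mouse, with DEHP mouse 4 and vehicle mouse 3 equal to 2 decimals. The mean log2 ratio was 0.26 ± 0.15 (SD), with a 95% interval of 0.078 to 0.44 and an adjusted p of 0.903 (limma, unadjusted 0.0145). The mean was 0.097 over the arrays on which DEHP carried Cy5 and 0.42 over those on which it carried Cy3.

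Rpl23, which sits on the face of the large subunit that meets the small one, had log2 levels of 14.14, 14.32, 14.13 and 13.96 in DEHP mice and 13.94, 13.80, 14.03 and 13.88 in vehicle mice. The groups overlapped through DEHP mouse 4, and the mean ratio was 0.23 ± 0.14. Rpl13a, which in human cells is also released from the ribosome to silence inflammatory mRNAs, had log2 ratios of 0.30, 0.20, 0.044 and 0.14 in pairs 1 to 4. Rpl38, whose loss in mice disturbs the translation of Hox mRNAs, had 0.31, 0.045, 0.41 and 0.066. Rpl36 had 0.31, 0.11, 0.31 and 0.007, and Rpl14 had 0.40, 0.057, 0.060 and 0.24. All 4 of these overlapped between DEHP and vehicle mice. Their ratios in every pair were positive, but that of Rpl36 was close to 0 in pair 4.

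At the other end of the large subunit, Rpl7a and Rpl5 had the lowest mean ratios. Rpl7a had log2 levels of 16.58, 16.30, 16.63 and 16.62 in DEHP mice, against 16.62, 16.90, 16.73 and 16.62 in vehicle mice. The low mean of -0.185 ± 0.225 came from pairs 1 and 2, with -0.325 and -0.427, while pairs 3 and 4 had 0.011 and 0.003. Rpl5, which with Rpl11 and 5S rRNA can bind and restrain the p53 ligase Mdm2, had -0.12, 0.23, -0.036 and -0.44, a mean of -0.093 ± 0.28. Its partner Rpl11 had 0.074 ± 0.14.

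The stalk, through which elongation factors are recruited, is built from Rplp0, Rplp1 and Rplp2. Rplp1 had log2 ratios of 0.20, 0.034, 0.023 and -0.15 in pairs 1 to 4, and Rplp2 had 0.078, 0.001, -0.23 and -0.15. The probe named Rplp0 in the files had 0.24, -0.007, 0.020 and 0.013. That probe is placed on chromosome 8 in the array's annotation (mm7) and stems from a partial mRNA, while RefSeq places the Rplp0 gene on chromosome 5. The brightest probe under the older name Arbp, matched to Rplp0 by its RefSeq accession, had 0.28, -0.21, 0.091 and -0.093, a mean of 0.018 ± 0.22. Stalk genes therefore had no direction shared by all 4 pairs.

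**Figure D3:**
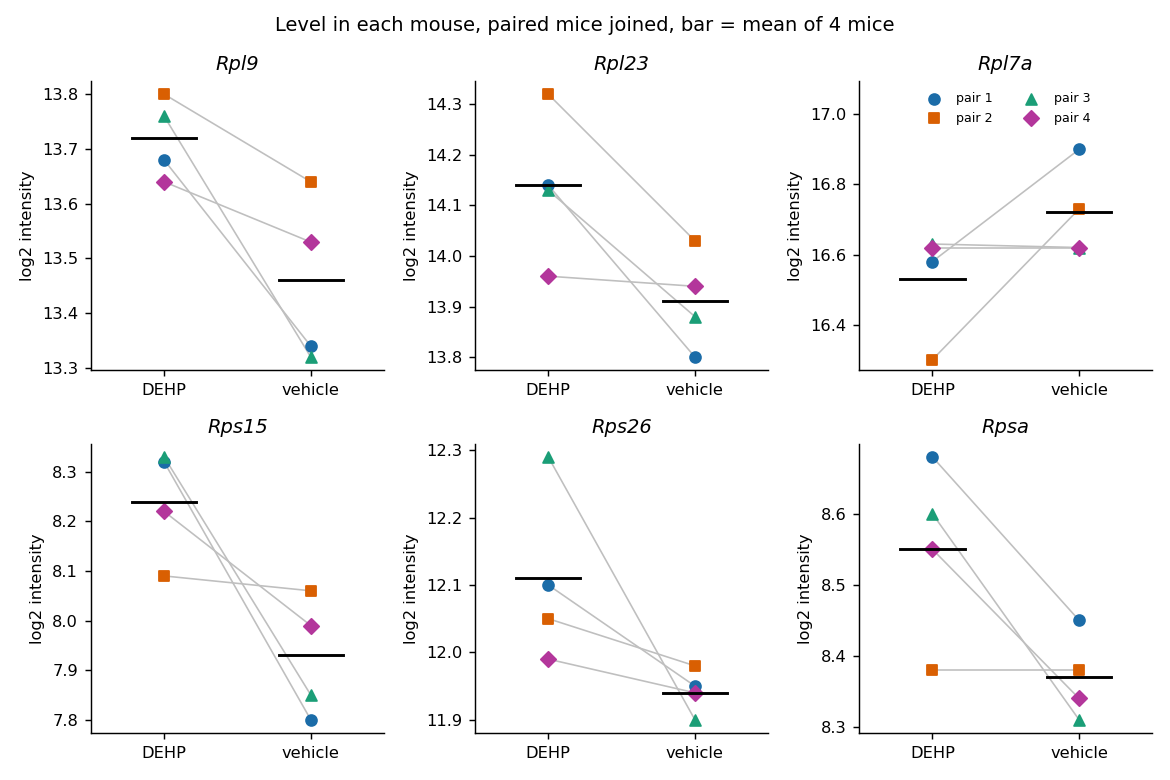
Log2 intensity (vertical axis, a separate range for each gene) in 4 DEHP mice and 4 vehicle mice for 3 large subunit genes (top) and 3 small subunit genes (bottom), with the mice of a pair joined and a bar at each mean. For Rpl9, Rps15 and Rps26 the DEHP mice lie at or above the highest vehicle mouse, and for Rpl7a the 2 pairs with negative ratios are pairs 1 and 2.

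In the small subunit Rps15, Rpsa, Rps29, Rps26 and Rps25 were among the 6 genes with the smallest p. Rps15, whose tail reaches towards the decoding site, had the highest mean ratio of all 76 genes. Its log2 level was 8.32, 8.09, 8.33 and 8.22 in DEHP mice and 7.99, 7.80, 8.06 and 7.85 in vehicle mice. The groups did not overlap, and the mean ratio was 0.31 ± 0.23, with an adjusted p of 0.903 in limma. Rps15 was read by a single dim probe, of mean log2 intensity 8.08. Its mean ratio was above 0 under every alternative in processing but ranged from 0.216 to 0.493. Rps26, which touches the mRNA upstream of the start codon in the channel where it leaves the ribosome, had log2 levels of 12.10, 12.05, 12.29 and 11.99 in DEHP mice against 11.94, 11.95, 11.98 and 11.90 in vehicle mice. These groups too were apart, by a gap of 0.01 between DEHP mouse 4 and vehicle mouse 3, and the mean ratio was 0.165 ± 0.154.

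Rpl9, Rps15 and Rps26 were the 3 of 76 genes whose DEHP mice all lay above the vehicle mice, where 0.725% of all tested genes did, and 0 of the 76 had them all below, with a background share of 1.04%. Without the scaling that equalises single channels between arrays (Aquantile), 0 of the 76 genes were apart, and the shares over all tested genes were also smaller, at 0.2% with the DEHP mice all above and 0.159% with them all below. Their probes are shown here because the separation rests on 1 probe for each gene, at mm7 positions chr5:64743456-64743906 (minus strand) for Rpl9, chr10:80076004-80076063 (plus strand) for Rps15 and chr10:128127075-128127859 (minus strand) for Rps26. The intervals of Rpl9 and Rps26 are longer than the 60 bases of a probe.
Rpl9: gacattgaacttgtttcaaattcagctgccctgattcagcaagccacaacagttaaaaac
Rps15: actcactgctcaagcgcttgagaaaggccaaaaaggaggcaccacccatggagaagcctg
Rps26: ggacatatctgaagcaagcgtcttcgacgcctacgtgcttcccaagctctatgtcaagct

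Rps25, which several viral internal ribosome entry sites need, changed sign with the dye: its mean log2 ratio was 0.11 ± 0.071, made of -0.086 where DEHP carried Cy5 and 0.305 where it carried Cy3. Rps29, a zinc-binding protein of the small subunit head, had 0.46, 0.000, 0.36 and 0.086 in pairs 1 to 4. Rps14, which lines the platform near the mRNA exit, had the lowest mean of the small subunit at -0.079 ± 0.265, and Rps2, at the mRNA entry, followed at -0.011 ± 0.14. Rps14 was below 0 in pairs 1 and 4, and Rps2 in pairs 2 to 4.

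Rpsa, also known as the laminin receptor, had log2 ratios of 0.23, 0.003, 0.29 and 0.215, and its unadjusted p was 0.0318 in limma (adjusted 0.903). A second, dimmer probe of Rpsa had a mean ratio of -0.072 ± 0.14. Rps21, outside the rule for named genes and singled out after its values were seen, had the widest spread of the 76 genes: 0.835, 0.083, 0.32 and -0.085.

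Some ribosomal proteins are made as fusions with ubiquitin or the ubiquitin-like protein Fubi, which is cut off during maturation. Rps27a, the small subunit fusion, had log2 ratios of 0.40, 0.033, 0.12 and -0.052. Fau, which carries Rps30, had 0.47, -0.44, 0.074 and 0.047, and Rack1, a scaffold for signalling kinases on the small subunit, had 0.58, -0.20, 0.19 and -0.51. Of these, Rps27a and Fau were above 0 in 3 pairs and Rack1 in 2. The mean was 0.12 ± 0.19 for Rps27a, 0.013 ± 0.47 for Rack1 and 0.038 ± 0.37 for Fau. The symbols of Fau and Rack1 fall outside the naming rule, as do probes that the files list under clone names and that match Rpl34, Rpl39l and Rps4l by RefSeq accession. The 7 ribosomal protein entries under other names had a median log2 ratio of 0.063, and all 7 means were above 0. Their 4 pair medians were 0.15, -0.094, 0.19 and 0.006.

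Probes of one gene did not always give one answer. Of 33 core genes with 2 or more usable probes, 9 had a further probe whose mean ratio had the opposite sign to the brightest, among them Rpl7, Rpl7a, Rpl22, Rps2, Rps18, Rps20, Rps24 and Rpsa. Over all genes the further probes, 41 in number, leaned the same way as the brightest, with 31 above 0 and a median of 0.072. Rps20, whose brightest probe had -0.026, -0.055, 0.50 and 0.024, had a second probe at -0.094 ± 0.067. In Rps24 the brightest probe had a mean of 0.19 ± 0.30 and the other -0.18 ± 0.12. The second probes of Rps20 and Rps24 were dim, both at a mean log2 intensity of 7.61. The brightest probe of Rps24 was at 13.47, and a further probe of that gene, at 6.82, failed the filter. The cause of the opposite signs was not tested. The brightest probe was near 0 in Rpl7 at 0.054 ± 0.23, Rps18 at 0.056 ± 0.215 and Rpl22 at 0.087 ± 0.074.

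The 3 probes of Rpl7a are shown because their order by brightness is also their order by ratio. From bright to dim, their mean log2 ratios were -0.185 ± 0.225, -0.058 ± 0.18 and 0.12 ± 0.225. In mm7 they lie on the plus strand at chr2:26920485-26920544, chr2:26920531-26920589 and chr2:26918784-26918843, and capitals mark the 14 bases that the first and the second share.
Rpl7a, brightest: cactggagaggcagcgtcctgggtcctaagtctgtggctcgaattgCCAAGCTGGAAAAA
Rpl7a, second: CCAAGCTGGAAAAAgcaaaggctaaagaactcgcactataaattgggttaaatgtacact
Rpl7a, dimmest: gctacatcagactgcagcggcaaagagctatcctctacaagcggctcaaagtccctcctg
The overlapping probes both had negative ratios in pairs 1 and 2, and the dimmest had 0.405 in pair 1. In Rpl7, which also had 3 usable probes, the order ran the other way. From bright to dim, its mean log2 ratios were 0.054, -0.057 and -0.143. Ribosomal protein genes have many near-identical processed pseudogenes, and signal shared with them was not tested.

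No difference between a -like paralogue and its parent gene was shown by the 4 pairs. Of 6 paralogues with a usable probe, all 6 had a mean ratio above 0. By the brightest probe of each gene, these lay between 0.023 for Rpl7l1 and 0.13 for Rps27l, with the parents between 0.054 and 0.23. For each, the ratio of the paralogue minus that of its parent was compared over the pairs by an exact 2-sided sign-flip permutation test, whose smallest possible p is 2 in 16 with 4 pairs and so cannot reach 0.05. The 6 exact p-values lay between 0.5 and 1, and all 6 were 1 after Benjamini-Hochberg adjustment.

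Rpl22l1, which with its parent Rpl22 binds RNA and in mice can stand in for it, had log2 ratios of -0.34, 0.16, 0.35 and 0.11 in pairs 1 to 4, against 0.185, 0.090, 0.067 and 0.006 for Rpl22. The difference was -0.52 in pair 1 and positive in the other pairs, with a mean of -0.015 ± 0.35 (exact permutation p = 1). Rpl36al, an autosomal copy of the X-linked Rpl36a, had 0.19, 0.075, 0.11 and -0.015 against 0.22, -0.022, 0.14 and -0.105, and its difference of 0.031 ± 0.072 had the smallest spread of the 6. Probes of these 2 couples are printed to show that they read different parts of the genes. Capitals mark the longest run of bases that the probes of a couple share, which is 6 for the first couple and 5 for the second. In mm7 they lie at chr3:28622984-28623043 (plus strand) for Rpl22l1, chr4:151319591-151319650 (plus) for Rpl22, chr12:67124603-67124662 (minus) for Rpl36al and chrX:129306720-129306779 (plus) for Rpl36a.
Rpl22l1: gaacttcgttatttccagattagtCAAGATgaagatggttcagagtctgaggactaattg
Rpl22: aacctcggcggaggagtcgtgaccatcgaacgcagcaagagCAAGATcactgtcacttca
Rpl36al: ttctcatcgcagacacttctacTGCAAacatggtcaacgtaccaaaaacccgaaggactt
Rpl36a: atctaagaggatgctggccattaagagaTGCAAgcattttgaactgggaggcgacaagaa

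Rpl39l, the germ cell paralogue of the exit-tunnel protein Rpl39, had log2 ratios of 0.048, -0.078, 0.38 and 0.006 in pairs 1 to 4, against 0.25, 0.24, 0.010 and -0.075 for Rpl39. Their pairs ran in different orders, and the difference was -0.017 ± 0.31 (exact permutation p = 1). Rps4l, a testis copy of the X-linked Rps4x, had 0.077, -0.094, -0.054 and 0.325 against 0.335, 0.59, -0.091 and 0.063, a difference of -0.16 ± 0.41 (exact permutation p = 0.75). Rps27l, a paralogue that p53 induces in human cells, had -0.082, 0.067, 0.53 and 0.012, and Rps27 had 0.34, -0.056, 0.62 and 0.003. Both were highest in pair 3, and the difference was -0.096 ± 0.24 (exact permutation p = 0.75). The brightest probe of Rpl7l1 had 0.117, -0.007, -0.015 and -0.004, with pair 1 apart from the rest. A second probe of Rpl7l1, almost as bright, had 0.142, 0.002, 0.203 and 0.333, a mean of 0.17 ± 0.138, and was highest in pair 4. Rpl7 had 0.12, 0.16, 0.21 and -0.285. The longest run shared by the probes of any of the 6 couples was 6 bases. Only the probes of a couple were compared with each other, and binding of a probe to the partner's mRNA was not tested. Rpl3 and Rpl10, parents of paralogues without a value here, had means of 0.13 ± 0.34 and 0.036 ± 0.15.

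**Figure D4:**
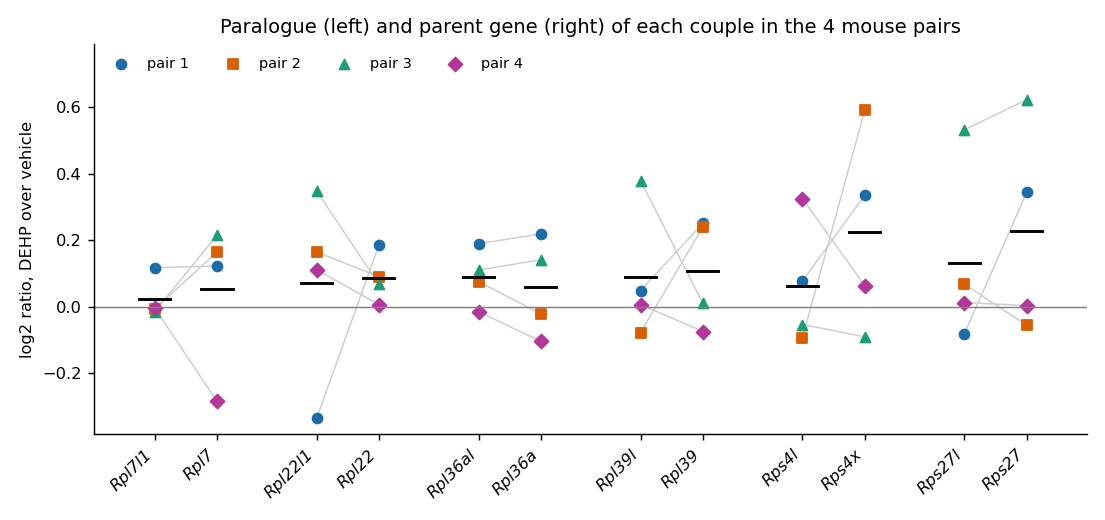
Log2 ratio of DEHP over vehicle (vertical axis) in the 4 mouse pairs for each of 6 paralogues (left of each couple) and its parent gene (right), with the points of a pair joined and a bar at each mean. All 12 means lie above 0, and in every couple the lines rise in some pairs and fall in others.

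A pyrimidine tract at the transcription start is the shared sequence feature of these mRNAs, and the RefSeq start windows (GRCm38.p6) were searched for it. The motif was a C at the annotated start base followed by at least 4 bases that are each C or T, read on the gene's own strand alone. A start window was at hand for 56 of the 76 core genes, and 13 of these (23.2%) held the motif, against 467 of 17492 protein-coding genes (2.67%). It was found in 7 of 33 large and 6 of 23 small subunit genes, and in 0 of 6 paralogues with a window. Those 6 include Rpl3l, which had no usable probe, and leave out Rps4l, for which no window was at hand. The 13 genes with the motif had a median log2 ratio of 0.13 with 12 above 0, the 43 without it had 0.093 with 38 above 0, and the 20 without a window had 0.092 with 18 above 0.
Windows from 40 bases before the start to 20 bases from it on are shown for Rpl38 and Rpl14, which are among the large subunit genes described above, for the parent gene Rps27, and, without the motif, for Rpl9 and the paralogue Rpl39l. Capitals mark the tract. They lie at chr11:114668540-114668599 (plus strand), chr9:120571477-120571536 (plus), chr3:90213629-90213688 (minus), chr5:65391412-65391471 (minus) and chr16:10170188-10170247 (plus) of GRCm38.p6, in the order of the lines.
Rpl38: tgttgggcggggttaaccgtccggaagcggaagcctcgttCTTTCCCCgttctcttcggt
Rpl14: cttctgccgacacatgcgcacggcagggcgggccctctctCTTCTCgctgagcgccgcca
Rps27: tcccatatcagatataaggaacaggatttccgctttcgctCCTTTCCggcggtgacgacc
Rpl9: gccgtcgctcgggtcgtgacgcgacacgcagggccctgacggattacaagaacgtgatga
Rpl39l: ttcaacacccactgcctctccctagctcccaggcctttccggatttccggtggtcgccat
A window without the motif says only that these letters do not stand at its annotated start.

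Genes that serve the ribosome without being part of it had medians nearer 0. The other TOP mRNAs had a median log2 ratio of 0.019 with 12 of 20 above 0, ribosome assembly factors -0.008 with 16 of 33, RNA polymerase I and III genes -0.005 with 11 of 23, mTORC1 and TOP regulators 0.007 with 9 of 18, and elongation and termination factors -0.063 with 6 of 13. In each of these lists 0 genes passed the adjusted test. At an unadjusted p under 0.05, where the background shares were 2.47% higher and 2.33% lower, 1 of the other TOP mRNAs was higher and 0 lower, 2 assembly factors higher and 1 lower, 0 polymerase genes higher and 1 lower, 0 regulators either way, and 1 elongation factor higher and 0 lower. The ribosomal medians differed from these in level, and the difference between lists was not tested.

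Hnrnpa1, an RNA-binding protein whose mRNA has a TOP tract, had log2 ratios of -0.41, -0.020, -0.051 and -0.80, and Eef1b2, the exchange factor of elongation factor 1 and a member of 2 of the lists, had 0.23, 0.22, 0.038 and 0.10. DEHP and vehicle mice overlapped in both genes. Ebna1bp2, a nucleolar factor for large subunit assembly, had log2 levels of 13.78, 13.76, 13.64 and 13.79 in DEHP mice against 13.56, 13.58, 13.60 and 13.51 in vehicle mice. Those levels did not overlap, and the ratio was 0.18 ± 0.05. The DEHP mice all lay above the vehicle mice in 1 of the 33 assembly factors, against 0.725% of all tested genes. Ddx18, an RNA helicase of the same pathway, had -0.18 ± 0.11 and was lower in 4 of 4 pairs. Rrn3, the factor that brings RNA polymerase I to the rRNA genes, had log2 levels of 7.99, 8.34, 8.03 and 8.29 in DEHP mice and 8.56, 8.56, 8.34 and 8.39 in vehicle mice, with DEHP mouse 2 and vehicle mouse 3 equal to 2 decimals. Its ratio was -0.30 ± 0.24, and that of Polr3k, a subunit of RNA polymerase III, was 0.165 ± 0.14. Deptor, an inhibitor of mTOR, had 0.11 ± 0.072, Tia1, a translational repressor of TOP mRNAs, had -0.12 ± 0.145, and Abce1, which splits ribosomes after termination, had -0.18 ± 0.21. The adjusted p was 0.903 in limma for Ebna1bp2 and Rrn3.

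The pairs in which ribosomal protein genes were highest were not those in which spermatid markers were. Spermatid markers, all 10 measured, had median log2 ratios of -0.38, 0.105, 0.059 and 0.26 in pairs 1 to 4, while the 76 ribosomal protein genes had 0.22, 0.037, 0.16 and -0.027. By these medians, pair 1 was lowest in spermatid markers and highest in ribosomal protein genes, and pair 4 the other way round. The spermatid markers were split within these pairs, with 3 of 10 above 0 in pair 1 and 7 of 10 in pair 4. Sertoli markers had 0.090, 0.14, -0.070 and 0.034, spermatocyte markers 0.028, 0.12, 0.022 and -0.106, and Leydig markers -0.20, 0.40, -0.85 and -0.23. The summed intensity of the spermatid markers was 629000 to 903000 in DEHP mice and 626000 to 874000 in vehicle mice. The part of these cell type markers in the ribosomal result was not tested.

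**Figure D5:**
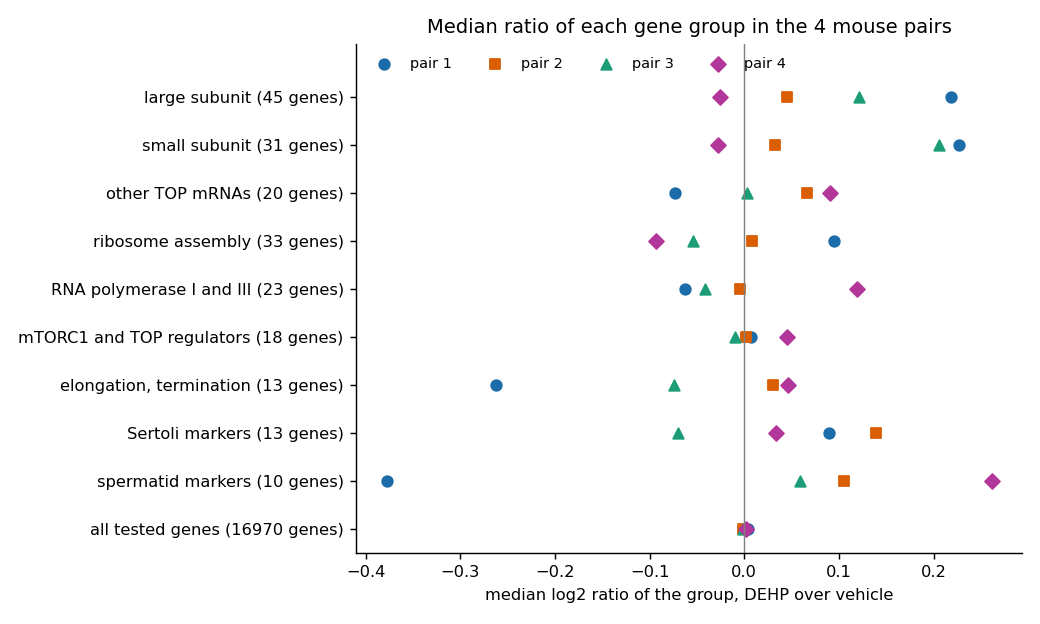
Median log2 ratio of DEHP over vehicle (horizontal axis) of each gene group in the 4 mouse pairs, with the number of genes tested in each group. The subunits lie at 0.22 and 0.23 in pair 1, where spermatid markers lie at -0.38, and below 0 in pair 4, where spermatid markers lie at 0.26.

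The displacement lay mostly in pairs 1 and 3, where the 76 genes had medians of 0.22 and 0.16, against 0.037 and -0.027 in pairs 2 and 4. Leaving out 1 pair at a time always kept pair 1 or pair 3. Without pair 1 the median was 0.066 for the large and 0.087 for the small subunit, with 37 of 45 and 27 of 31 genes above 0. Without pair 3 the medians were 0.086 and 0.097, and fewer genes lay above 0, with 36 of 45 and 22 of 31. Without pair 4 the medians were 0.12 and 0.15.

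Rps19bp1, named after the protein it binds, had log2 ratios of 0.37, -0.057, 0.35 and 0.33, a mean of 0.25 ± 0.20 with an unadjusted p of 0.0376 in limma (adjusted 0.903). Its mean was 0.052 where DEHP carried Cy5 and 0.44 where it carried Cy3. A second, dimmer probe of Rps19bp1 had a mean ratio of 0.077 ± 0.23, with an unadjusted p of 0.46 in limma.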

How the data were processed

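RNA from 4 DEHP and 4 vehicle mice was measured on 8 two-colour Agilent arrays. Per the file headers, Feature Extraction 9.5.1.1 measured each spot, and the deposited columns used here are its mean signal intensity, its median background intensity and a log10 ratio of Cy5 over Cy3. A table of log2 ratios deposited by the authors was made with limma per the submitters' processing notes. Its version and settings are not given in the sources used here, and its rows were matched to spots, and its direction found, by comparison with the scanner ratios.

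Intensities were corrected by normexp (offset 50) and loess within arrays with limma 3.58.1 in R 4.3.3, with control and outlier spots at weight 0. Spots of a probe and the 2 dye-swapped arrays of a pair, which correlated at 0.539 to 0.717 over probes, were averaged. An intercept was fitted on the 4 pair means of 22975 probes with eBayes and Benjamini-Hochberg adjustment, and the fit was tested on simulated data. Per-mouse levels used Aquantile scaling. Each array held 45018 spots, and the number of mouse pairs limits the precision. P-values measure the spread between mouse pairs.

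Named were, per subunit, the 6 genes with the smallest unadjusted p and the 2 with the lowest mean, the paralogues and their parents, Rplp0, Rplp1, Rplp2, Rpsa, Rps27a, Fau, Rack1, genes with a further probe of opposite sign, and the 2 smallest p of each other list. Some genes that this rule or the marker lists name are not reported by name here, though counts and medians include them. Members and lists were chosen with earlier results of these data known. Sequences are RefSeq's (GRCm38.p6) or the array files' (mm7). Alternatives covered background, scaling, filter, dye, probe choice, block and left-out pairs.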

Additional observations from a re-analysis of the deposited data

Results flagged for a closer look

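Single values that stood apart from the other 3 of their group were sought in 150 groups of 4, by the gap to the nearest value as a share of the range, and 10 were found, where chance gives about 1 in 20 groups. Rpl7a had a log2 level of 16.301 in DEHP mouse 2, below the other DEHP mice. Rps29 had 14.818 in DEHP mouse 4, also below the others. Rps4x was high in DEHP mouse 2, at 11.439, and Rps20 in DEHP mouse 3, at 17.048. The ratio of Rps20 stood apart as well, with 0.496 in pair 3. Among vehicle mice, mouse 3 was high for Rpl36a, at 14.9, and for the elongation factor gene Eef1b2, at 11.965. By the brightest probe of each gene, pair 1 stood apart for 3 genes, with log2 ratios of 0.117 for Rpl7l1, 0.235 for Rplp0 and -0.497 for Abce1.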

How the results depend on the processing

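With 4 pairs, 1 probe for most genes and slide tied to dye, these data limit what can be said of any single ribosomal protein gene, and no setting called a probe. The medians of both subunits were above 0 under all 18 alternatives in processing, between 0.066 and 0.25 for the large and 0.07 and 0.279 for the small subunit, and the cause of the movements below was not tested. Split by brightness, an alternative added after seeing the data, the members outside the brightest 10% had medians of 0.085 (large) and 0.174 (small). With the pair as a random replicate block over the 8 arrays (correlation 0.63) the medians were the same, 0.096 and 0.11, and the smallest adjusted p was 0.473, so the block changed no call.

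Median centring moved the subunit medians to 0.25 and 0.279, turned the paralogue differences to 0.01 for Rpl22l1, -0.045 for Rpl36al and 0.104 for Rpl39l, and turned Rpl7a to 0.047, Rpl5 to 0.041, Rps14 to 0.105, Rps2 to 0.202 and Rplp2 to 0.133. Without Aquantile the 3 genes with separate mice became 0, while the share over all tested genes went to 0.2% in place of 0.725%. Rps2 was 0.005 without background correction. The Agilent ratio gave 0.001 for the Rpl22l1 difference and -0.002 for Rack1. With DEHP in Cy5 alone the large minus small difference was 0.057, the differences of Rpl22l1, Rpl39l and Rps27l from their parents were 0.037, 0.114 and 0.002, and Rps25 turned to -0.086, Rps14 to 0.011, Rps4l to -0.032, Rpl10 to -0.027, Rpl36a to -0.1, Rplp0 to -0.056 and Fau to -0.131. With DEHP in Cy3 alone the Rpl36al and Rps4l differences were -0.141 and 0.063, Rps2 was 0.121, Rpl39l -0.073, Rplp1 -0.082, Rps27a -0.104, Rack1 -0.049 and Rps18 -0.121. Array weights gave 0.055 for Rpl5, -0.016 for Rps4l, -0.132 for Fau and -0.012 for Rack1.

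The mean over probes gave differences of 0.146 for Rpl7l1 and 0.037 for Rpl22l1, and ratios of 0.014 for Rps2 and -0.049 for Rpl7. The dimmest probe gave differences of 0.313 for Rpl7l1, 0.089 for Rpl22l1 and 0.038 for Rps4l, and ratios of 0.121 for Rpl7a, -0.072 for Rpsa, 0.04 for Rps2, -0.143 for Rpl7, -0.041 for Rpl22, -0.001 for Rack1, -0.043 for Rps18, -0.094 for Rps20, -0.18 for Rps24, 0.152 for Abce1, -0.079 for Polr3k, -0.03 for Deptor and 0.002 for Tia1. In the authors' deposited table, which held 26 of the 45 large and 17 of the 31 small subunit genes, the large minus small difference was -0.087, the Rpl7l1 and Rpl36al differences were 0.108 and -0.042, and Rpl7a had 0.101, Rps2 0.036, Rpl7 -0.085, Rps18 -0.032, Rps20 -0.182 and Hnrnpa1 0.175.

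Leaving out each pair in turn gave 0.066 to 0.124 for the large subunit, 0.087 to 0.146 for the small, and -0.035 to -0.011 for their difference. The paralogue differences ranged over -0.134 to 0.036 for Rpl7l1, -0.114 to 0.153 for Rpl22l1, -0.146 to 0.083 for Rpl39l, -0.302 to 0.013 for Rps4l and -0.169 to 0.014 for Rps27l. Single genes whose sign turned ranged over -0.199 to 0.023 for Rpl5, -0.151 to 0.042 for Rps14, -0.078 to 0.026 for Rps2, -0.008 to 0.036 for Rpl7l1, -0.021 to 0.208 for Rpl22l1, -0.008 to 0.144 for Rpl39l, -0.024 to 0.116 for Rps4l, -0.001 to 0.204 for Rps27l, -0.003 to 0.239 for Rpl3, -0.019 to 0.094 for Rpl10, -0.031 to 0.085 for Rplp1, -0.106 to 0.197 for Fau, -0.176 to 0.188 for Rack1, -0.002 to 0.153 for Rps18, -0.019 to 0.164 for Rps20 and 0 to 0.167 for Rpl7.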
